A study of Mus musculus with 39 samples.

Results

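CatSper is the calcium channel of the sperm tail. The 8 genes described here encode its pore-forming subunits (Catsper1, Catsper2, Catsper3 and Catsper4) and auxiliary subunits with large extracellular parts (Catsperb, Catsperd, Catsperg1 and Catsperg2). They were chosen by symbol from the gene list of the single-cell data, which holds 32285 genes, and all 8 were found. The mice carried a floxed allele of Kdm6a, an X-linked gene whose enzyme takes methyl groups off lysine 27 of histone H3. Controls were Kdm6a fl/y; Cre-, and the conditional knockout (cKO) was Kdm6a fl/y; Ddx4-Cre+, in which Cre is driven by a germ-cell gene. RNA of single cells came from dissociated whole testis, with 1 library per genotype. Open chromatin (ATAC-seq) and the repressive histone mark H3K27me3 (CUT&Tag) came from sorted cKIT+ spermatogonia of the same genotypes, with 2 control and 3 cKO libraries each. The labels used here give no age or strain, nor the number of animals behind a single-cell library.

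CatSper opens at the alkaline pH and, in some species, with the hormones that sperm meet in the female tract, and the calcium that enters drives the vigorous tail beat called hyperactivation. Male mice that lack a pore subunit make sperm that move but do not fertilise an egg in mating. The pore is a ring of Catsper1 to Catsper4, each with its own voltage sensor, and the auxiliary subunits form a canopy above it. Sperm make almost no RNA, so the genes are transcribed earlier, in meiotic spermatocytes and in haploid spermatids.

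The sequences before the gene starts were read from RefSeq (GRCm38.p6), where 6 of the 8 genes were matched, with 8 start sites in all. Catsper1 and Catsperg2 were not matched. Catsperb and Catsper4 are shown because the former had the lowest ratio of cKO to control RNA and the latter was the only matched subunit gene with H3K27me3 at its start. Capitals mark AACGG or AACTG, the core bound by MYB factors, on either strand. The Catsperb stretch covers chr12:101404423-101404644 on the + strand, and the Catsper4 stretch covers chr4:134227432-134227633 on the - strand.
Catsperb: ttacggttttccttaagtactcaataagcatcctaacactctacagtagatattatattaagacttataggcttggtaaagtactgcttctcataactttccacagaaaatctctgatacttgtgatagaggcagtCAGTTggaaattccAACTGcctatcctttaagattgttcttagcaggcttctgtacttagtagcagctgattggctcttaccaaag
Catsper4: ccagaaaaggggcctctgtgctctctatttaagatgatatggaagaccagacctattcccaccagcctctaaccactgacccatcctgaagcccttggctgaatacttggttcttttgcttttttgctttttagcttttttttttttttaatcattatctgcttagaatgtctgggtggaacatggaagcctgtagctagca
The Catsperb stretch holds the MYB core on both strands a few bases apart, and the Catsper4 stretch holds none of the motifs searched.

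The short sites below show the matches of TGACG, which is part of the site of CREB and CREM factors, and of TATAAA, in capitals. They lie at chr2:121413852-121413881 (- strand), chr17:56626885-56626914 (+ strand) and chr7:29214165-29214194 (- strand).
Catsper2: gccgattggctgCGTCAcgcagcgtcgggc
Catsperd: acTGACGgcgcaccgcacttaCGTCAtctc
Catsperg1: cagaacaaccatTATAAAttcctctgtttc
Over the 250 bases before each start, on both strands, TGACG was found in 2 of 8 subunit windows and in 17.8% of all 32851 windows of the same length. The MYB core was found in 5 of 8 (48.6% of all), TATAAA in 1 of 8 (12.4%) and GTTGCC, which is part of the X-box of RFX factors, in 0 of 8 (10.4%). None of these shares stands as a test, and a match is a run of letters only. The Catsper2 window overlaps the gene Pdia3 and the Catsperd window with TGACG overlaps Lonp1, so neither can be given to the subunit gene alone. The windows differed in base composition: the Catsper2 window was 74.8% G and C with 35 CG pairs, whereas the Catsperb window was 38% G and C with 1 CG pair and the Catsper4 window 45.2% with 1.

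Cells were barcodes with at least 3000 UMIs (unique molecular identifiers, each counting 1 captured RNA), 11252 in the control library and 8520 in the cKO library, with median UMIs of 8410.5 and 8499. There were 30 barcodes in both libraries. Levels are given as CPM, the UMIs of a gene per 1000000 UMIs of the same cells, with an exact Poisson interval (95%) that covers counting error only. Kdm6a in early prophase spermatocyte-like cells had 138 UMIs in control and 8 in cKO (21.8 and 2.22 CPM), which goes the way of the labels. The sources used here do not say whether its 3′ tags lie inside the deleted part. Cells were gated as "like" a stage by fixed marker lists that hold no subunit gene. There were 1908 control and 1449 cKO pachytene and later spermatocyte-like cells (pachytene-like below), and 1808 and 1683 round spermatid-like cells. Of these, 260 and 252 pachytene-like and 187 and 135 round spermatid-like cells lay near the cut between stages (a gap of under 0.4 between their highest scores). Because whole libraries were compared, a gene's level over all cells moves both with the number of cells of a stage and with the RNA per cell, and these cannot be told apart there.

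Barcodes of 10 to 100 UMIs were taken as RNA that floats free in the suspension, called free RNA below. Each level was read against them and against Leydig-like cells, which are somatic. A level is called above background where its interval lay above both in both libraries. That criterion was added after the levels had been seen. For clusters, the control library alone was used to call a level above background. Macrophage markers summed to 364 CPM in control and 463 in cKO free RNA, against 6.40 and 4.65 over all cells. The barcodes taken as free RNA may thus hold other RNA too. Elongating spermatid markers summed to 31762 and 29437 CPM in free RNA and 25695 and 19049 in Leydig-like cells. In macrophage-like cells they summed to 95947 and 74133.5 CPM, and in Sertoli-like cells to 69023 and 62476.5. RNA carried over into cells may thus exceed this background, which was not tested.

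The channel genes divided into those highest in pachytene-like cells and those highest in round spermatid-like cells. In both libraries 5 of 8 were highest in the former (Catsper2, Catsperb, Catsperd, Catsperg1 and Catsperg2), against 20.6% of 19235 genes in control and 19.6% of 18290 genes in cKO. The remaining 3 (Catsper1, Catsper3 and Catsper4) were highest in round spermatid-like cells, against 22.3% of genes in control and 22.3% in cKO. Of these 5 gates, the highest for 3 of the 4 pore genes came after meiosis and that for each auxiliary gene came in meiosis.

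**Figure D1:**
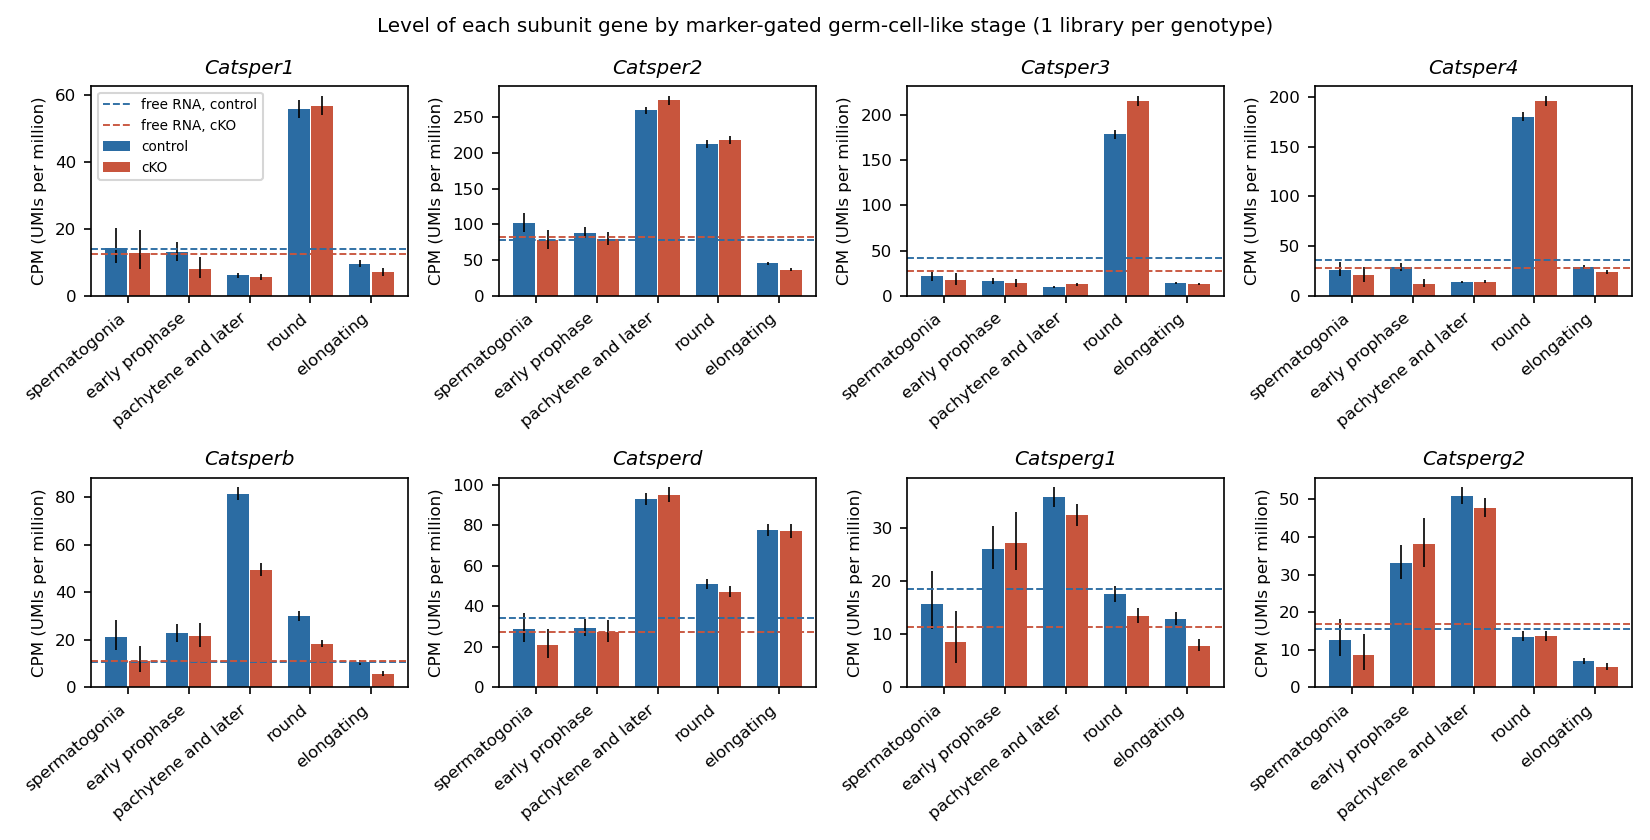
CPM of each subunit gene (y axis, linear from 0) in 5 marker-gated germ-cell-like stages (x axis) in the control and the cKO library, with 95% Poisson intervals of the count. Catsper1, Catsper3 and Catsper4 are highest in round spermatid-like cells and the other genes in pachytene-like cells, in both libraries.

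Catsper1, a pore subunit with a histidine-rich tail, was at 55.7 CPM (53.0 to 58.5) in control and 56.7 (53.9 to 59.6) in cKO round spermatid-like cells. In pachytene-like cells it was at 6.19 and 5.70 CPM, below the free RNA level of 13.9 and 12.4 CPM. With each cell thinned to 3000 UMIs, so that cells count alike, this level was 9.96 and 8.97 CPM. Of the 5 germ-cell stages, only round spermatid-like cells were above background for this gene. The order below the highest stage cannot be read, since spermatogonia-like cells (14.4 and 12.8 CPM) and early prophase spermatocyte-like cells (13 and 8.05 CPM) lay at the free RNA level.

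Catsper3 and Catsper4 are the other pore genes with a late peak. Catsper3 stood at 178 CPM (173 to 183) in control and 215 (210 to 221) in cKO round spermatid-like cells, with 9.66 and 12.7 CPM in pachytene-like cells and 41.8 and 27.8 CPM in free RNA. Catsper4 stood at 180 CPM (175 to 185) in control and 196 (190 to 201) in cKO round spermatid-like cells, with 13.6 and 14.4 CPM in pachytene-like cells and 36.1 and 27.8 CPM in free RNA. For both genes, too, round spermatid-like cells were the sole stage above background.

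Catsper2, the remaining pore gene, differed from these in time. It was at 260 CPM (255 to 265) in control and 274 (267 to 280) in cKO pachytene-like cells, and still at 213 and 218 CPM in round spermatid-like cells. Both stages were above background, with free RNA at 77.9 and 82.5 CPM. Catsper2 (chr2:121391633-121414598, - strand) overlaps Pdia3, a gene of protein folding, from chr2:121413902 on, at the end where Catsper2 starts. Reads in that overlap may not tell these genes apart. How many of the 3′ tags of Catsper2 lie there was not tested.

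Among the auxiliary genes, Catsperb had the most unequal levels between the libraries. It was at 81.2 CPM (78.6 to 84.0) in control and 49.5 (46.9 to 52.1) in cKO pachytene-like cells, and at 30.0 and 18.4 CPM in round spermatid-like cells. Free RNA held 10.8 and 10.9 CPM and Leydig-like cells 19.3 and 12.5 CPM, the latter from only 19 and 10 UMIs. By the criterion, which uses the upper ends of those intervals, the pachytene-like level alone was above background in both libraries. The round spermatid-like values were higher than those of free RNA and Leydig-like cells, but the few Leydig-like UMIs make that comparison weak. The order of its early prophase (22.8 and 21.7 CPM) and round spermatid-like levels was not the same in the libraries.

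Catsperd was the only subunit gene above background in elongating spermatid-like cells. It was at 93.0 CPM in control and 95 in cKO pachytene-like cells, at 51.0 and 47.2 CPM in round spermatid-like cells and at 77.8 and 77.0 CPM in elongating spermatid-like cells. Free RNA held 34.0 and 27.3 CPM. Peritubular and vascular-like cells, which are somatic but not part of the background used, held 90.0 CPM in control and 63.2 in cKO. The elongating spermatid markers summed to 130756 and 88882 CPM in those cells. RNA carried over from elongating cells may thus exceed the background used, which was not tested. The elongating spermatid-like gate includes a cluster with few of its own leading markers, described with the clusters below. The level of Catsperd thus had a low between a pair of higher values, in both libraries.

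Catsperg1 and Catsperg2 are closely similar copies of a gene for the gamma subunit, on chromosome 7 with 481.628 kb between them, so the authors' counting could split or drop their shared reads and the values of each are uncertain. Catsperg1 was at 35.9 CPM in control and 32.4 in cKO pachytene-like cells and Catsperg2 at 51.0 and 47.8 CPM. In early prophase spermatocyte-like cells they were at 26.1 and 27.2 CPM and at 33.2 and 38 CPM. For Catsperg1 in cKO the intervals of these neighbouring stages overlapped. Catsperg2 was above background in both stages and Catsperg1 in pachytene-like cells only.

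To see the levels in finer steps, all cells were divided into 23 clusters without use of the subunit genes, of which 17 were germ clusters, ordered by their marker scores. Pachytene-like cells lay mostly in the clusters at positions 4 to 7 and round spermatid-like cells in those at positions 8 to 11. At position 4 only 38.2% of cells were in the pachytene-like gate. Its mean scores were 0.73 for the pachytene and 0.70 for the early prophase markers. Catsperg2 was highest at position 4 (61.8 CPM in control, 54.8 in cKO), while Catsperb was highest at position 5 (91.6 and 56.7), as were Catsperg1 (38.5 and 37.9) and, among the spermatocyte clusters, Catsperd (106 and 112). Catsper2 followed at position 6 (426 and 447). Catsper1 was highest at position 9 in control (66.6, with 61.6 in cKO), and Catsper4 at position 10 (260 and 296). Catsper3 stood at 217 CPM in control and 260 in cKO at position 9 and at 228 and 257 CPM at position 10.

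Past position 10 the pore genes were lower again, with Catsper3 at 17.4 and 15.8 CPM and Catsper4 at 70.3 and 78.9 CPM at position 12. Catsperd took the other course. It was at 30.8 and 30.2 CPM at position 10, at 79.4 and 80.8 CPM at position 11 and at 124 and 130 CPM at position 12, its highest level of all 17. By cluster, the highest level of this auxiliary gene thus came after the spermatocyte clusters. That rests on the cluster at position 12, which was placed by its mean elongating marker score but had no elongating marker and 1 round spermatid marker among its 10 leading genes, with 70.4% of its cells in the elongating spermatid-like gate. At position 13 Catsperd was at 94.5 and 98.2 CPM, below its level at position 5. The clusters at positions 2, 4, 7 to 11, 13 and 17 had no marker of any class among their 10 leading genes. The order of the clusters was set by markers after the clusters had been seen, so it is not a measured time.

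**Figure D2:**
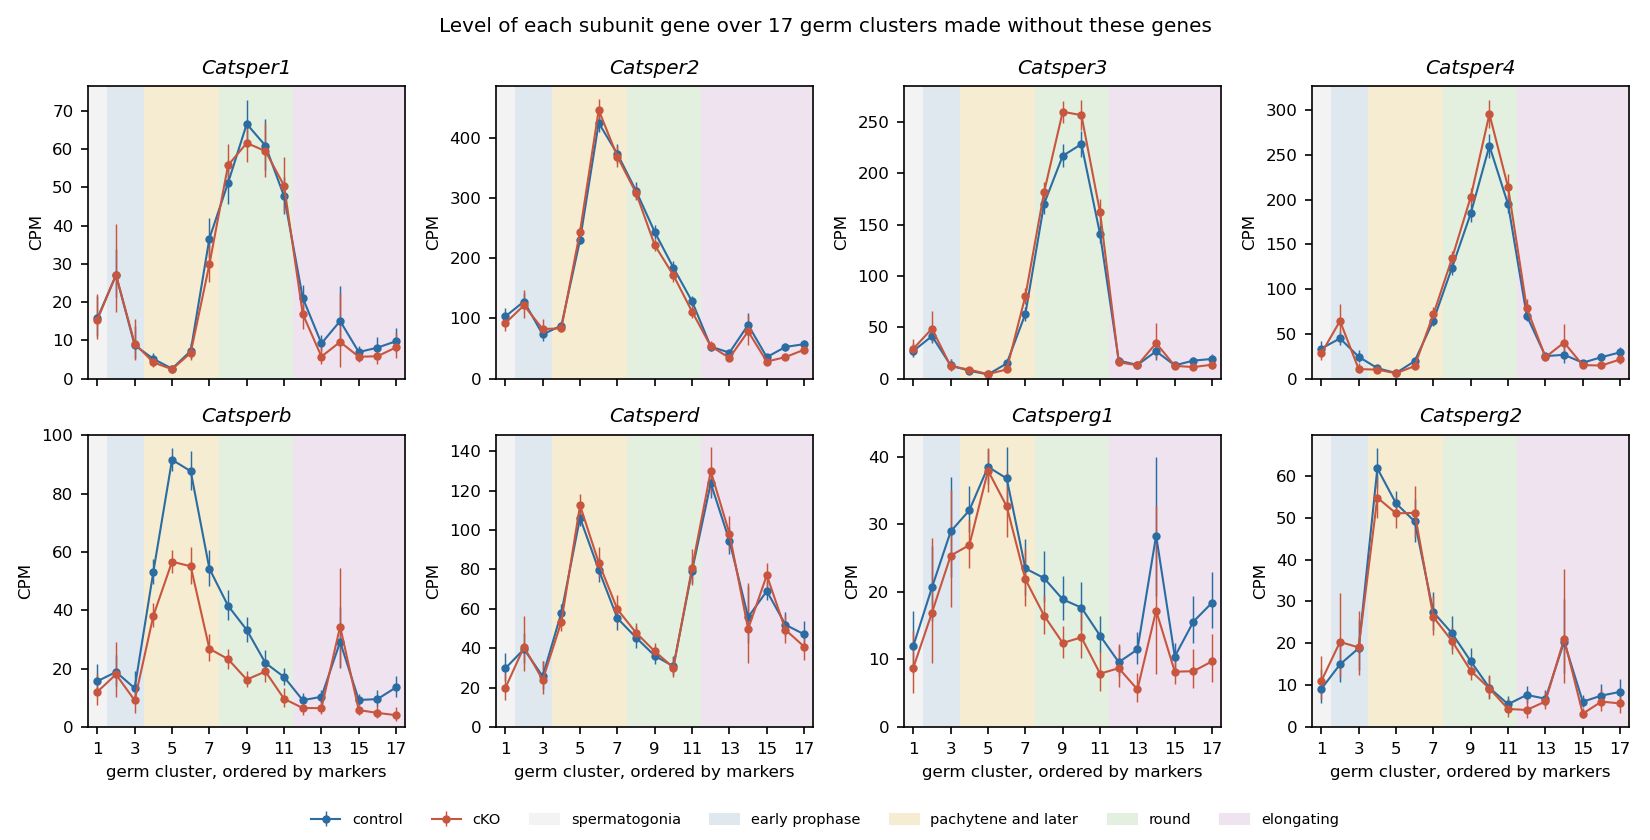
CPM of each subunit gene (y axis, linear from 0) in 17 germ clusters ordered by marker scores (x axis) in the control and cKO libraries. Auxiliary genes and Catsper2 peak in the spermatocyte clusters, Catsper1, Catsper3 and Catsper4 in the round spermatid clusters, and Catsperd has a further, higher peak at position 12.

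Profiles over the 23 clusters, as log2 (CPM + 1), set Catsper1, Catsper3 and Catsper4 together and Catsperd apart. Catsper1 and Catsper3 had r = 0.94 in control and 0.95 in cKO, and Catsper3 and Catsper4 had 0.95 and 0.95. Catsperb and Catsperg2 had 0.91 and 0.90. Catsperd had -0.28 to 0.23 with the other 7 genes in control and -0.24 to 0.12 in cKO. The clusters of a library share its depth and its free RNA, so these values describe the profiles and carry no test.

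**Figure D3:**
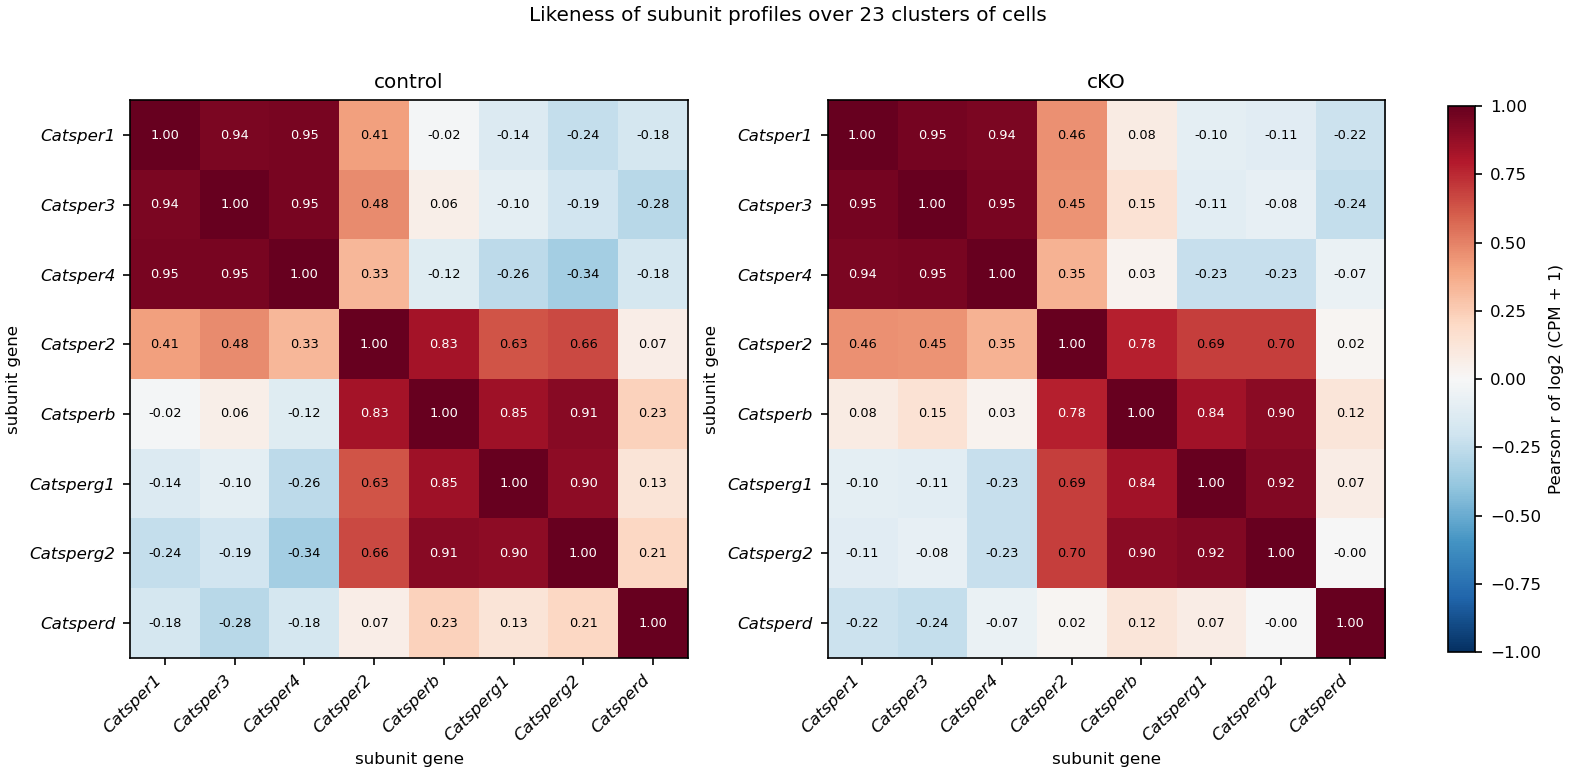
Pearson r of log2 (CPM + 1) over 23 clusters for each pair of subunit genes (both axes) in the control and the cKO library, from -1 (blue) to 1 (red). Catsper1, Catsper3 and Catsper4 form a block with r from 0.94 to 0.95, and Catsperd has values near or below 0 with most of the others.

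Other genes with like profiles were ranked by the same r in the control library, over 8171 genes that reached 50 CPM in a cluster. The summed subunit genes were most like Lypd4 (0.99), Ssmem1 (0.99), Wfdc3 (0.98), Tekt1 (0.98) and Rsph9 (0.98). For Catsperb these were Spag6l (0.98), Cfap70 (0.98) and Ankar (0.98), for Catsperg2 first Cfap65 (0.98), and for Catsperd Ttc23 (0.87), Dnajb2 (0.87) and 4933409G03Rik (0.82). These genes were picked by their control r. In cKO, r was 0.98, 0.99, 0.97, 0.96 and 0.96 for the summed genes, in the same order. It was 0.87, 0.90 and 0.90 for Catsperb, 0.95 for Catsperg2 with Cfap65, and 0.88, 0.88 and 0.76 for Catsperd. Spaca1, the gene most like Catsper3, is one of the markers of the round spermatid gate.

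The share of cells with a UMI was compared after each cell had been thinned to 3000 UMIs. Catsper3 was then seen in 40.6% of control and 45.9% of cKO round spermatid-like cells, against 5.13% and 3.88% of Leydig-like cells, whose median UMIs were 7667 and 6609 against 13101.5 and 12236. Catsperb was seen in 22.2% of control and 14.1% of cKO pachytene-like cells, against 4.27% and 3.88% of Leydig-like cells. Unthinned, the shares were 81.2% and 87.4% for Catsper3 and 71.2% and 55.0% for Catsperb. RNA of at least 3 of the 8 genes was seen in 23.2% and 23.4% of thinned round spermatid-like cells, and in 12.0% and 8.83% of pachytene-like cells. In Leydig-like cells the share with at least 3 was 1.71% and 2.91%, and in peritubular and vascular-like cells 4.5% and 5.29%. All 8 together were seen, unthinned, in 1.71% and 1.31% of round spermatid-like cells, against none of the Leydig-like cells and 0.5% of control peritubular and vascular-like cells.

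The comparison of the genotypes asks how much of each gene's RNA is found without Kdm6a. With 1 library per genotype there is no replicate check and no test. Ratios are log2 of (cKO CPM + 1)/(control CPM + 1) with the counting interval of the count ratio, and genes are counted past 0.5 on that scale. Over all cells Catsperb was lower in cKO and past 0.5, while no subunit gene was higher and past 0.5. At a minimum of 5000 UMIs Catsper3 was past it too, at 0.52.

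Over all cells Catsperb gave 5500 UMIs in control against 2505 in cKO, which is -0.69 on the log2 scale (-0.78 to -0.64). That was 1 of 8 subunit genes past 0.5, against 2.87% of 21276 genes either way and 2.39% lower, and 0.602% of genes had a lower ratio than Catsperb. Catsper3 gave 6900 and 7219 UMIs, or 0.48 (0.44 to 0.54), the highest of the 8. The ratios of Catsper4 (0.27), Catsper1 (0.16) and Catsper2 (0.07) were above 0 and those of Catsperd (-0.07), Catsperg2 (-0.11) and Catsperg1 (-0.29) below it. The share of round spermatid-like cells, where Catsper1, Catsper3 and Catsper4 are highest, was 16.1% in control and 19.8% in cKO, whereas that of pachytene-like cells was 17% in both.

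Within pachytene-like cells Catsperb gave 3465 UMIs against 1424, or -0.70 on the log2 scale (-0.81 to -0.63). It was again 1 of 8 past 0.5, against 3.85% of 16403 genes. Of the other genes above background here, Catsper2 (0.07), Catsperd (0.03), Catsperg2 (-0.09) and Catsperg1 (-0.14) lay nearer 0. Of the 3 not above background, Catsper3 was at 0.36 (0.19 to 0.60), Catsper4 at 0.07 and Catsper1 at -0.10. Over the 8 genes, the median ratio was -0.03 beside -0.02 for all genes.

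Within round spermatid-like cells 1 of 8 was past 0.5, against 8.02% of 16610 genes. This was Catsperb, at -0.68 (-0.86 to -0.54) from 873 and 507 UMIs, a level that was not above background. Catsper3 was at 0.27 (0.22 to 0.33), Catsper4 at 0.12 (0.06 to 0.17) and Catsper1 at 0.03 (-0.08 to 0.13). Catsper3 was therefore nearer 0 within the stage than over all cells, but its interval still lay above 0. The clusters that made up these cells differed in share: that at position 9 held 24.0% of control and 32.9% of cKO cells, that at position 8 20.4% and 27.5%, and that at position 11 21.0% and 12.3%. The summed level of the elongating spermatid markers in these cells was 33673 CPM in control and 22760.5 in cKO, and in free RNA 31762 and 29437 CPM. Its part in the ratios was not tested.

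**Figure D4:**
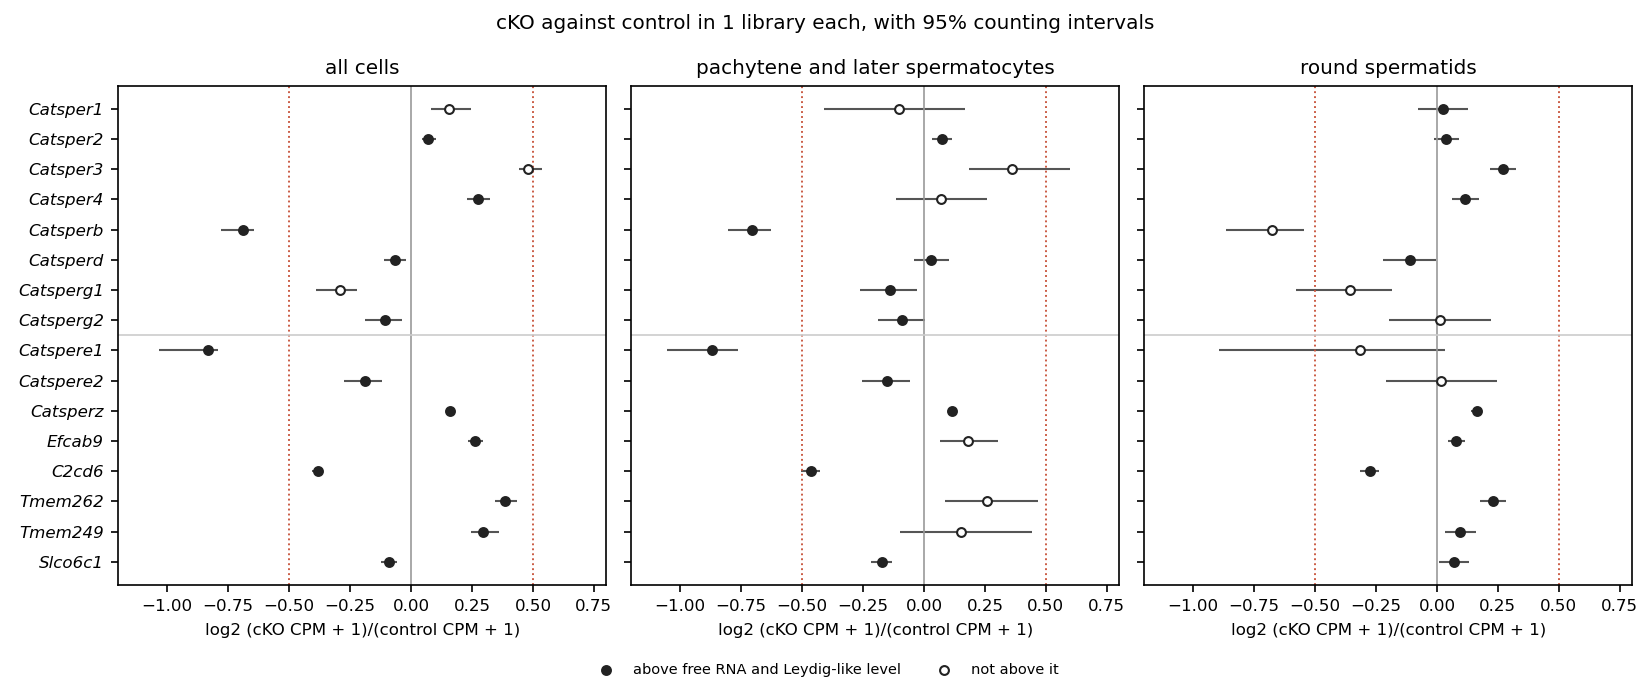
log2 (cKO CPM + 1)/(control CPM + 1), x axis, for the subunit genes and the other channel genes (y axis) in all cells, pachytene-like cells and round spermatid-like cells (panels), with 95% counting intervals. Catsperb lies below -0.5 and Catsper3 above 0 in each panel, and Catspere1 lies lowest in all cells and in pachytene-like cells.

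In early prophase spermatocyte-like cells 2 of 8 were past 0.5 (Catsper1 at -0.63 and Catsper4 at -1.13), against 24.4% of 12900 genes, and in spermatogonia-like cells 3 of 8 (Catsperb, Catsperg1 and Catsperg2), against 20.8% of 11705 genes. The former count was 0 at a minimum of 5000 UMIs or with stages taken from the clusters, and 1 when scaled to a median ratio of 0 or with no margin between scores, and the latter was 1 with stages taken from the clusters. The levels behind these ratios were not above background, and the median ratio of all genes in the former cells was -0.13. Early prophase spermatocyte-like cells also came from unlike clusters, with 43.0% of control and 18.3% of cKO cells in the cluster at position 2. In elongating spermatid-like cells the ratios of the 8 genes ran from -0.76 (Catsperb) to -0.01 (Catsperd). Their median was -0.31 beside -0.08 for all genes, and only Catsperd was above background. Genes past 0.5 are not counted for this gate, since a cluster in it had a marker of another class and none of its own among its leading genes.

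By cluster, Catsperb had a ratio below 0 in 16 of 17 germ clusters. In the 5 where it was above background in control the ratio was below 0 in all, from -0.99 to -0.47. For each gene these clusters were chosen by the control level, which also enters the ratio, so such ranges are a description only. The counting interval lay below 0 in 11 of the 17. In somatic classes, where its level was not above background, the ratio was -0.59 (-1.90 to 0.55) in Leydig-like cells, -0.92 (-1.70 to -0.28) in Sertoli-like cells, -0.10 in peritubular and vascular-like cells and 0.06 in macrophage-like cells. What these share with the germ clusters was not tested. Catsper3 had ratios of 0.09 to 0.35 in its 5 clusters above background, and Catsper4 of 0.12 to 0.18 in its 6. Catsperg1 was below 0 in 17 of 17, but only by -0.24 to -0.02 in the 3 clusters where it was above background. Catsper2 (-0.20 to 0.09) and Catsperd (-0.12 to 0.16) lay on both sides of 0 in their 8 and 9 such clusters.

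The other 8 genes known for the channel were described with the same measures. Catspere1, an auxiliary subunit, had the lowest ratio of them, with 1945 against 770 UMIs over all cells, or -0.83 (-1.04 to -0.79), and with 33.8 and 18.0 CPM in pachytene-like cells. Its near-copy Catspere2 was at -0.19 over all cells, with 53.1 and 47.6 CPM in pachytene-like cells, and as with the gamma pair shared reads make both uncertain. C2cd6, which helps bring the channel to the tail, was at -0.38 over all cells, with 412 and 298 CPM in pachytene-like cells. Its ratio was below 0 in the 10 germ clusters where it was above background in control (-0.50 to -0.13). Catsperz and Efcab9, partners in the cytoplasm that sense calcium and pH, were at 0.16 and 0.26. Tmem262 (0.38) and Tmem249 (0.30) are small membrane subunits, and Slco6c1 (-0.09) is a transporter found with the channel. Past 0.5 were 1 of 8 over all cells, 1 of 8 in pachytene-like cells and 0 of 8 in round spermatid-like cells, against the shares of genes given above. In early prophase spermatocyte-like cells 5 of 8 were past 0.5, all lower, against 24.4% of all genes either way, with a median of -0.70 beside -0.13 for all genes. In spermatogonia-like cells these were 4 of the 7 that passed the count filter, all lower, against 20.8%. Of these, Catspere2 (-0.78) and C2cd6 (-0.67) in early prophase spermatocyte-like cells were above background in control but not in cKO. The other genes past 0.5 in these cells, and all of those in spermatogonia-like cells, were not above background in control. The unlike make-up of early prophase spermatocyte-like cells by cluster, given above, holds for these genes too.

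Of these genes 5 were highest in pachytene-like and 3 in round spermatid-like cells in control (Efcab9, Tmem262 and Tmem249). In cKO C2cd6 was highest in the latter, but in control its levels in these stages were close, at 412 CPM (406 to 418) and 403 CPM (396 to 410). Efcab9 had 452 and 477 CPM and Tmem262 182 and 214 CPM in round spermatid-like cells. The late group of the channel thus held pore genes, a calcium sensor and small membrane subunits.

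Catsperb is also the longest of the 8 subunit genes, spanning 221 kb, and the ratio moved with gene span over all genes. Among genes of at least 10 CPM in control, those under 10 kb (2266 genes) had a median log2 ratio of 0.09 over all cells and 1.32% were past 0.5 lower. Those over 100 kb (842 genes) had a median of -0.20, with 9.86% past 0.5 lower and 2.38% below Catsperb. In pachytene-like cells the 760 genes over 100 kb had a median of -0.21, and 2.76% had a lower ratio than Catsperb. Catspere1 spans 154 kb, Catspere2 190 kb and C2cd6 97.9 kb, whereas Catsper1 spans 8.67 kb and Catsperz 2.96 kb. Catsper3 spans 39.5 kb, and the 2197 genes of 30 to 100 kb had a median of -0.14, with 7.01% past 0.5 lower, so its ratio of 0.48 lay on the other side of 0 from the median of its span class. The part of gene span in the ratios was not tested.

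**Figure D5:**
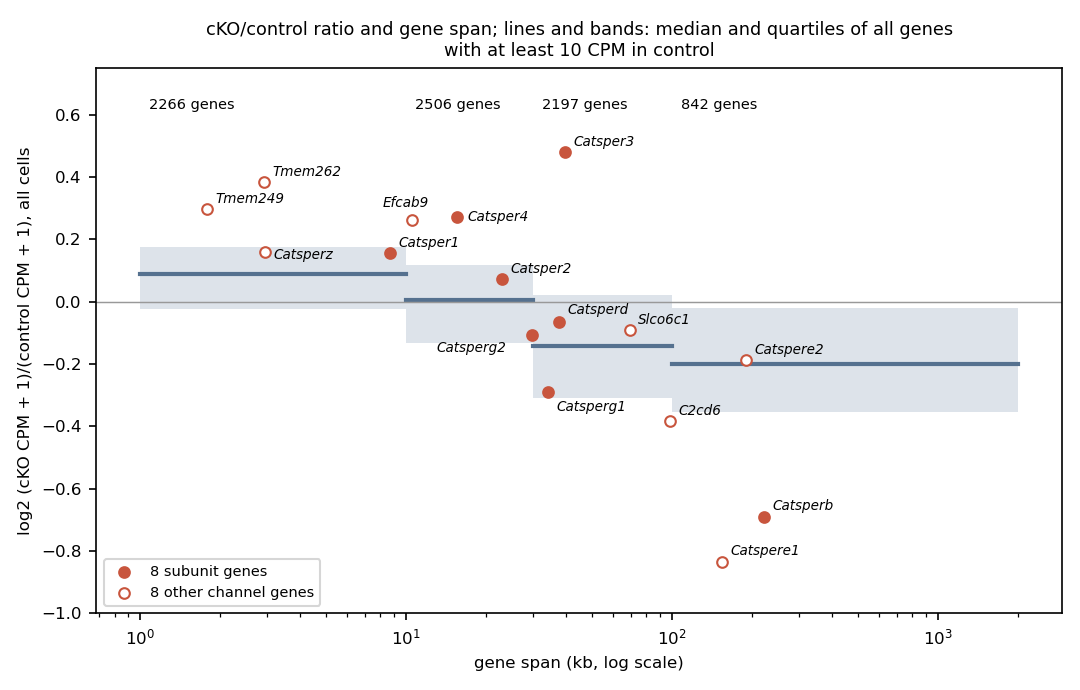
Gene span in kb (x axis, log scale) against log2 (cKO CPM + 1)/(control CPM + 1) over all cells (y axis) for the subunit genes and other channel genes as points, with the median and the quartiles of all genes of at least 10 CPM in control as lines and bands. Catsperb (221 kb) and Catspere1 (154 kb) lie below the band of genes over 100 kb, whose median is -0.20.

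On the chromosome, Catsperb (chr12:101404645-101626009) had 2 of its 6 nearest measured genes past 0.5, both lower in cKO, against 2.39% of all genes lower: Ppp4r3a just past it at -0.50 (25.3 and 17.5 CPM) and Trip11 at -0.54 (66.0 and 45.1 CPM). Both fall in the class of 30 to 100 kb, where 7.01% of genes of at least 10 CPM in control were past 0.5 lower. None of the 6 nearest genes of any other subunit gene was past 0.5. Pdia3, which overlaps Catsper2, was at -0.37 (244 and 188 CPM) while Catsper2 was at 0.07.

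In sorted cKIT+ spermatogonia, well before the genes' highest levels, ATAC-seq peaks were found within 1000 bases of a start of Catsper2, Catsperd and Catsperg1 in 5 of 5 libraries. Of 26794 genes with a start in the table, 26.4% had a peak at a start in every library and 52% in at least 1. Catsper3, Catsper4 and Catsperb had one there in 0 of 5. Over its span, widened by 1000 bases on each side, Catsper3 had a peak in 3 of 5 libraries (2 control and 1 cKO), from lists of unlike length. The peak at Catsper2 also covered the start of Pdia3 and that at Catsperd the start of Lonp1, so neither can be given to the subunit gene alone. The authors' fold enrichment of the Catsperg1 peak was 3.57 and 3.94 in the control lists and 3.21, 3.85 and 3.70 in the cKO lists, which overlap. Catsper1 (chr19:5335615-5344281), with no start in the table, had a peak in its span, widened in the same way, in 0 of 5 libraries. Catsperg2 (chr7:29697217-29727049) had one in 5 of 5, against 40.6% of 21631 widened gene spans with a peak in every library.

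H3K27me3 regions lay within 1000 bases of the start of Catsper4 in 4 of 5 libraries (2 control and 2 cKO), and at no start of the other 5 matched genes. Of all genes with a start in the table, 6.17% had a region at a start in every library and 18.5% in at least 1. Mean signal per base of the Catsper4 regions was 23.2 and 20.5 in control and 27.9 and 24.5 in cKO, where the library with no region there gives no value, so the genotypes cannot be compared on it. Over gene spans widened by 1000 bases on each side, Catsper3 (chr13:55784500-55824048) had regions in 5 of 5 libraries, against 12.2% of spans. They lay at the end that faces Pitx1 (chr13:55825044-55836190), a homeobox gene. Of the widened Catsper3 span 4103 and 6006 bases were covered in control and 1977, 3247 and 6682 in cKO, which overlap. Catsperd had regions within its widened span in 4 of 5 libraries (1 control and 3 cKO). They covered 0 and 10195 bases of it in control and 1668, 1504 and 2852 in cKO, so the control libraries were unlike each other. The IgG control had no region at any subunit gene. Peak lists ranged from 14635 to 40497 for ATAC-seq and from 11118 to 18494 for H3K27me3, and the lists were called per library.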

How the data were processed

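RNA counts were made by the authors with Cell Ranger, whose name stands in the deposited matrix headers; the submitters' processing notes also name Seurat 4.1.0 and mm10. The deposited matrices hold UMI counts for all barcodes, with no normalization. The ATAC-seq lists give, as the authors deposited them, a fold enrichment (ratio), a score and -log10 of p and q per peak, with Bowtie2 and MACS2 per the submitters' processing notes. The deposited CUT&Tag lists give summed and highest signal per region (SEACR, per the same notes). Both used mm10, the build of the RefSeq tables.

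Members and gene lists were chosen with earlier results of these data known; every member and list gene was measured whatever its value. Cells with at least 3000 UMIs were gated on z-scored marker lists (top score above 0 and 0.2 over the second) and clustered with scanpy 1.11.5 and leidenalg 0.10.2. Doublets marked by Scrublet (5.50% of control and 6.51% of cKO cells) were kept. Genes needed 20 UMIs over both libraries, and 1 CPM was added before ratios. Neighbours were the 3 measured genes on each side, and like genes the 5 (summed members) or 3 (each member) with the highest r. Intervals came from scipy 1.17.1. Alternatives were the UMI minimum, pseudocount, scaling, filters, doublets, margin, cluster stages, thinning and shared barcodes (the last added after seeing the data). The ratio step was tested on simulated data. The peak, gene span and neighbourhood descriptions, too, were added after seeing the data. Bulk RNA was not used, since none of the tables at hand pairs its transcripts with genes.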

Additional observations from a re-analysis of the deposited data

How the results depend on the processing

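The ratio of Catsperb over all cells ran from -0.72 to -0.67 over the 8 alternatives to the settings used, and that in pachytene-like cells from -0.74 to -0.68 over 7. That of Catsper3 in round spermatid-like cells ran from 0.25 to 0.29. The number of subunit genes past 0.5 over all cells, 1 as reported, was 2 at a minimum of 5000 UMIs. In early prophase spermatocyte-like cells the number, 2 as reported, was 0 at a minimum of 5000 UMIs, 1 when scaled to a median log2 ratio of 0, 1 with no margin between scores and 0 with the stage of the Leiden cluster. In spermatogonia-like cells it was 3 as reported, 1 with the stage of the Leiden cluster, 2 when scaled to a median log2 ratio of 0 (Catsperg2 was then at -0.42), at a minimum of 5000 UMIs or with no margin, and 4 without barcodes marked by Scrublet. The cause of these moves was not tested. No ratio past 0.5 changed sign. With each cell thinned to 3000 UMIs, 16 of 32 levels in pachytene-like and round spermatid-like cells moved by more than their counting interval, while each gene kept its higher stage of this pair. No paired analysis was possible because the result comes from no test and each genotype has 1 single-cell library. The planned bulk testis comparison, with its alternatives, was not run. Low counts limit the somatic classes, such as Leydig-like cells (117 control and 103 cKO), which serve as the background, and among germ-cell stages spermatogonia-like cells (311 and 253), where no subunit gene was above background.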

Other observations

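Genes of ion transport and signalling in the tail (12 listed) were measured beside the channel. Over all cells 1 of 12 was past 0.5, against 2.39% of genes lower: Akap4, a scaffold of the fibrous sheath, at -0.64. Atp1a4, the sodium pump of sperm, was just short of it at -0.50, and Atp2b4, a calcium pump, at -0.42. Akap3, a further scaffold, was at -0.33 and Slc9c1, a sodium-proton exchanger, at -0.23. Kcnu1, the sperm potassium channel, was at -0.11 and its partner Lrrc52 at 0.24. Akap4 had ratios below 0 in the 10 germ clusters where it was above background in control (-0.67 to -0.37) and Akap3 in its 8 (-0.34 to -0.13). In Leydig-like cells, which are somatic, their ratios were also below 0, at -1.02 and -1.36. In control Akap4 and Atp1a4 were highest in elongating spermatid-like cells and Kcnu1, Lrrc52, Adcy10 and Akap3 in round spermatid-like cells. Akap4 is itself a marker of the elongating spermatid gate, so its highest stage follows from the gating and is no finding.

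Within 1 Mb, Catsper1 had 0 of 101 measured genes past 0.5 and Catsper4 0 of 52. Around Catsperg2, 5 of 79 were past 0.5, among them Map4k1 at 1.46.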
